A study of Arabidopsis thaliana with 15 samples.

Results

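The response of aboveground parts to a 100-fold difference in bacterial density was measured by comparing 2 groups of Arabidopsis thaliana plants, W7 and W5. Uninoculated plants were not used in the comparison. All plants were of the Col-0 accession, and those of W7 and W5 were sprayed with Williamsia sp. Leaf354, a non-pathogenic bacterium of the leaf microbiota. W5 plants received 100000 colony-forming units (CFU) per ml and W7 plants 10000000 CFU per ml. The libraries were taken by their labels, 3 per group, which made 6 of the 15 libraries of the series. The other groups were W6 (1000000 CFU per ml), W8 (100000000 CFU per ml) and mock plants sprayed with phosphate-buffered saline. Plants were 6 weeks old, grew in zeolite-filled boxes, and gave their aboveground parts at 96 h after spraying. Each library was made from a pool of 2 plants from different boxes, so the tests below measure the spread between such pools, and 2 plants of a pool cannot be told apart. The labels put every library in the same experiment.

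Leaves perceive bacteria through receptors at the cell surface that bind conserved microbial molecules, a process called pattern-triggered immunity. Kinase cascades, calcium signals and WRKY transcription factors follow, and salicylic acid amplifies the response and can establish resistance in distant leaves. A separate network, run by the kinase SnRK1 and by sugar-sensitive bZIP transcription factors, raises genes for amino acid and carbohydrate breakdown when sugar is short, and NAC transcription factors drive leaf senescence. Genes of all these networks were counted in W7 and W5.

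Counts of reads per gene summed to between 18438508 and 21669178 in the 6 libraries, and 19285 of 32833 genes passed the filter on low counts. Levels are given in CPM, a gene's counts per 1000000 counts of the library, which was scaled except for the marker sums. Root markers were near 0, with summed levels of 0.0469 to 0.471 CPM in W5 and 0.217 to 0.461 CPM in W7. The root genes EXPA7, EXPA18 and COBL9 were at 0 in these libraries, as were the seed genes OLEO1 and SESA1. The 5 mesophyll markers summed to 48574 to 52785 CPM in W5 and 46705 to 50549 CPM in W7, and none of the mesophyll, phloem or guard cell markers was called different between the groups, although 1 mesophyll marker was called lower with a replicate block. Of 5 epidermis markers, CUT1, of wax synthesis, rose by 0.33 ± 0.08, a call lost without W5 replicate 1 (adjusted p = 0.072), and the part of cell type shares in the results below was not tested. Flower markers summed to 4.03 to 5.08 CPM in W5 and 2.27 to 4.85 CPM in W7. Shoot meristem markers summed to 2.02 to 9.56 CPM in W5 and 2.66 to 4.45 CPM in W7. No tested marker of flower or shoot meristem was called. In RNA of whole aboveground parts, fewer cells of a type and less RNA per cell cannot be told apart. On the first principal component of the 12 inoculated libraries, the W7 libraries stood farther from each other than the W5 libraries did. On this component, which held 54.2% of the variance, W5 lay between -38.6 and -34.1, whereas W7 replicates 1, 2 and 3 lay at -9.24, 7.47 and 19.9. W6 lay at -26.2 to -18.7 and W8 at 44.4 to 70.0 on the same axis. Over all genes tested, the standard deviation of the log2 difference between 2 replicates was 0.332 to 0.353 in W5. In W7 it was 0.342 to 0.409, so the ranges overlapped. Chi-square per degree of freedom between 2 replicates was 3.97 to 5.13 in W5 and 6.21 to 8.79 in W7.

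In W7, 1234 genes rose and 662 fell against W5, which were 6.4% and 3.43% of the genes tested. A gene was called at an adjusted p under 0.05 in edgeR's quasi-likelihood test with Benjamini-Hochberg adjustment over all 19285 genes. The 1896 called genes made up 9.83%, and 4689 genes (24.3%) had an unadjusted p under 0.05. Changes were mostly small: the median log2 fold change was 0.53 among the genes that rose and -0.33 among those that fell, beside -0.0025 over all genes tested. At least 2-fold changes were found for 286 genes that rose (1.48%) and 22 that fell (0.114%). Without regard to the test, all W7 libraries lay above all W5 libraries for 16% of genes and below them for 15%. Removing 1 library left 996 called genes without W7 replicate 2, 1080 without W5 replicate 1, 1186 without W5 replicate 3 and 1205 without W5 replicate 2. Values below are CPM in replicates 1, 2 and 3, followed by the log2 fold change of W7 against W5 with its standard error (n = 3 pools per group) and the adjusted p. Where exons of a gene overlap those of another, reads of both cannot be told apart, and the share of exon bases that are the gene's own is given.

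The largest changes are given for called genes whose groups did not overlap, whose higher group had a mean of at least 5 CPM and which share at most 5% of their exon bases with other genes. Among the 12 such genes with the largest increases was BT2, which encodes a BTB-TAZ scaffold protein that responds to sugar and nitrogen supply. BT2 was at 4.79, 3.42 and 4.26 CPM in W5 and at 68.8, 59.5 and 66.1 CPM in W7. Every W7 library was far above every W5 library, and the log2 fold change was 3.97 ± 0.16 (edgeR adjusted p = 4.63e-09). Mock plants had 2.57, 5.04 and 5.36 CPM, on both sides of the W5 values and far below W7. The largest increase of these 12 belonged to TAT3, a tyrosine aminotransferase gene known to respond to wounding and jasmonate, at 2.02, 1.34 and 2.66 CPM in W5 and 7.27, 18.7 and 94.2 CPM in W7. The W7 libraries did not overlap W5 but differed widely among themselves, and the log2 fold change of 4.32 ± 1.13 passed the threshold narrowly (edgeR adjusted p = 0.0497). LURP1, required for basal defence against an oomycete, behaved in the same way, with 9.12, 7.85 and 8.99 CPM in W5 and 22.1, 66.7 and 123 CPM in W7 (3.03 ± 0.79, edgeR adjusted p = 0.0485). The calls of TAT3 and LURP1 were lost without any 1 of the W5 libraries, W7 replicate 2 or W7 replicate 3, with adjusted p up to 0.151 and 0.144 over all alternative settings. AT1G13470, a gene of unknown function, rose by 2.87 ± 0.67. Its call was lost under the same 5 removals (adjusted p up to 0.107), and with the mock libraries in the fit (0.121).

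The remaining genes of this group were less variable. AT1G30720 and AT1G30730 are neighbouring genes for berberine-bridge-like enzymes, whose reads may be shared. AT1G30720 rose from 2.17, 1.52 and 2.23 CPM to 14.2, 10.9 and 11.8 CPM (2.64 ± 0.15, edgeR adjusted p = 2.98e-09). AT1G30730 rose by 2.41 ± 0.14, with the absence of overlap between groups that was a condition of its choice. AT4G20000, which encodes a protein with the VQ motif found in partners of WRKY factors, rose by 2.48 ± 0.18. The peptide transporter gene PTR3 rose by 2.37 ± 0.28, and the endoplasmic reticulum chaperone gene BIP3 by 2.31 ± 0.36. The kinase-like gene AT3G46280 rose by 2.96 ± 0.53 and the unannotated gene AT5G44575 by 2.22 ± 0.39. The calls of AT3G46280 and BIP3 were lost with the mock libraries in the fit (edgeR adjusted p = 0.111 and 0.052). In 1 of the 3 mock libraries, replicate 3, AT1G30720 reached 10.7 CPM and AT3G46280 13.2 CPM, whereas the other mock libraries were within or below the W5 range.

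Decreases were smaller than increases. AT2G15020, which has no annotated function, fell from 37.8, 28.5 and 33.6 CPM in W5 to 13.9, 10.3 and 12 CPM in W7 (-1.46 ± 0.12, edgeR adjusted p = 2.84e-07). AT2G44940, an AP2-type transcription factor gene, fell from 24.9, 21.6 and 22.7 CPM to 9.10, 10.9 and 7.91 CPM (-1.31 ± 0.11, edgeR adjusted p = 5.53e-07). Neither gene showed any overlap between the groups, which was a condition of their choice. AT5G20790, of unknown function, had the largest decrease within the same limits, from 7.91, 7.25 and 13.1 CPM to 3.71, 1.05 and 3.58 CPM (-1.77 ± 0.44, edgeR adjusted p = 0.0323). Its call was lost without W5 replicate 1, W5 replicate 3 or W7 replicate 3 (adjusted p up to 0.0876), and with the mock libraries in the fit (0.141). The B-box gene BBX29 fell by 1.24 on the log2 scale, the aspartyl protease gene PCS1 by 1.02 and AT1G76240 by 1.02. AT3G44450 and AT3G04140, an ankyrin repeat gene, fell by 0.96 each, and AT3G27540, a glycosyltransferase gene, by 0.95. PDX1L4 fell by 1.26, a call lost without W5 replicate 2, W5 replicate 3, W7 replicate 2 or W7 replicate 3 (adjusted p up to 0.0779).

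**Figure D1:**
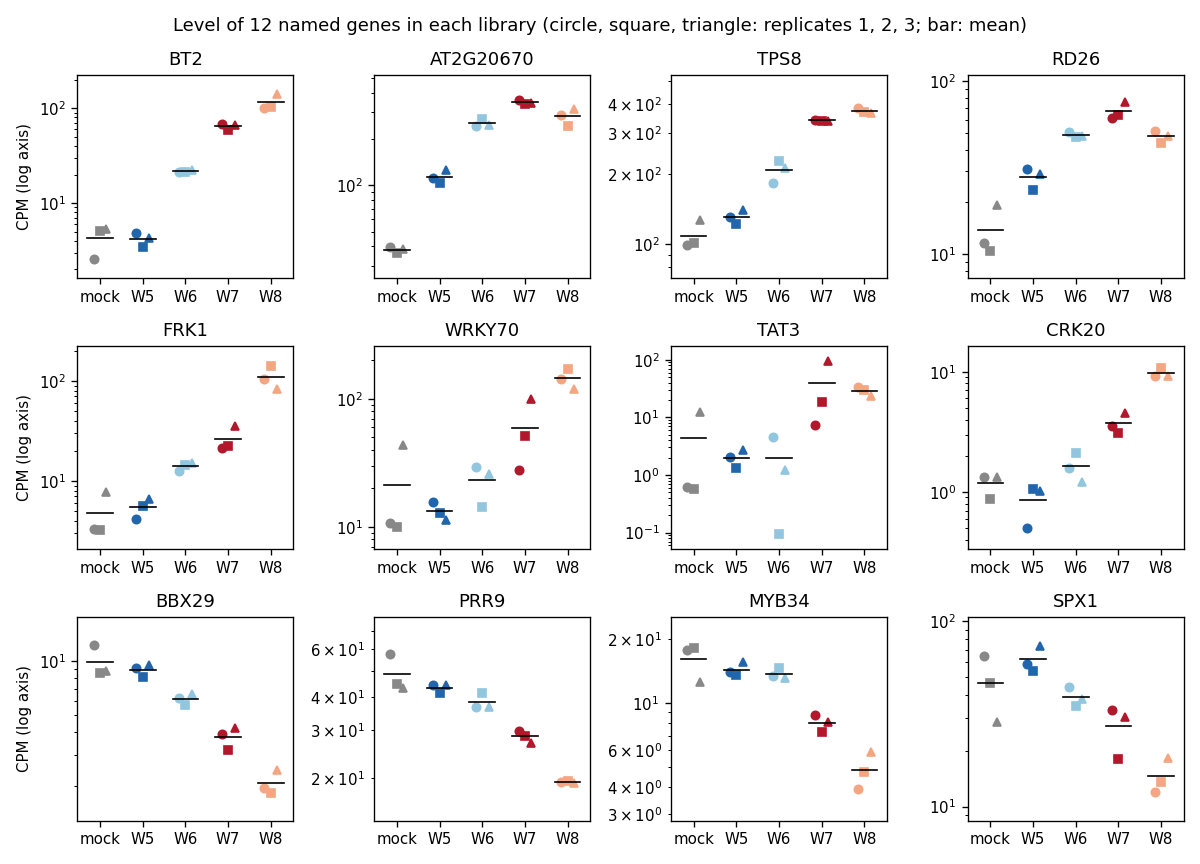
Level of 12 genes named in the text in each library, in CPM on a log axis, for mock, W5, W6, W7 and W8; symbols are replicates 1, 2 and 3 and the bar is the group mean. BT2 in W7 sits between 59.5 and 68.8 CPM, whereas TAT3 in W7 spreads from 7.27 to 94.2 CPM.

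Sequences upstream of the 3 largest increases and the 3 largest decreases among these genes are shown because W-boxes, the sites that WRKY factors bind, were searched for in all promoters. Each is the 250 bases before the gene's start in RefSeq (assembly TAIR10.1), on the gene's strand. Capitals mark matches on either strand to the W-box TTGACC or its other form TTGACT, to the core TGACG of as-1 elements, to the G-box CACGTG, to the evening element AAAATATCT, to the GCC box GCCGCC or to the I-box core GATAA. The windows are chr2:10585217-10585466 (minus strand) for TAT3, chr3:17910739-17910988 (minus strand) for BT2 and chr2:6213367-6213616 (plus strand) for LURP1. Those of the genes that fell are chr5:7040920-7041169 (minus strand) for AT5G20790, chr2:6493513-6493762 (minus strand) for AT2G15020 and chr2:18536927-18537176 (plus strand) for AT2G44940.
TAT3: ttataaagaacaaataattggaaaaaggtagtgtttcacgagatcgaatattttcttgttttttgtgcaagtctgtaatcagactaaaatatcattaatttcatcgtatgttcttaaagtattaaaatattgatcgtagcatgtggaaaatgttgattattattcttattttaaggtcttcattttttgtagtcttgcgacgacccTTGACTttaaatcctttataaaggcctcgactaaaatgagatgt
BT2: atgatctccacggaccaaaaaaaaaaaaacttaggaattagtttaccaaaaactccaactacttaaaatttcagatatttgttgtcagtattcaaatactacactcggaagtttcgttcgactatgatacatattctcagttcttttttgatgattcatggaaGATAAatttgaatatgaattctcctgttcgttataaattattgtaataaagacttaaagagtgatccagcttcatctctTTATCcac
LURP1: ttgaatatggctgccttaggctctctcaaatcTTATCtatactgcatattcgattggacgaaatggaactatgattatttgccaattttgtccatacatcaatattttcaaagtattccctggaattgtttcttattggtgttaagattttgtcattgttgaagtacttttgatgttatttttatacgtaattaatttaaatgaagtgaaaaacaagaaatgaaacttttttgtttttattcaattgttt
AT5G20790: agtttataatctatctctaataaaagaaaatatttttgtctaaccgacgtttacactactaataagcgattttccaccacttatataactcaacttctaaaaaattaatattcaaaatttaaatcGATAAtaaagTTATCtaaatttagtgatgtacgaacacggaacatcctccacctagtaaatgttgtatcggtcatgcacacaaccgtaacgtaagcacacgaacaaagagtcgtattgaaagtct
AT2G15020: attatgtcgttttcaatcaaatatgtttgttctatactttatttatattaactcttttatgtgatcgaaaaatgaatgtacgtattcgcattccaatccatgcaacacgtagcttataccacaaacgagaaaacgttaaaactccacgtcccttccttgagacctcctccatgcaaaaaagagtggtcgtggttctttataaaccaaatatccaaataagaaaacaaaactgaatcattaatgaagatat
AT2G44940: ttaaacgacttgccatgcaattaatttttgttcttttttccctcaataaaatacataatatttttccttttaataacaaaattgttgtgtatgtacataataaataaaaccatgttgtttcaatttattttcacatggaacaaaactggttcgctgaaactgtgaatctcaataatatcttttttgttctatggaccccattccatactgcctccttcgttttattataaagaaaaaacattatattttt
The TAT3 window held 1 W-box, close to the gene's start. The BT2 window held 2 GATAA cores, 1 of them at its end beside the gene's start, and no W-box, and the LURP1 window held 1 GATAA core. Among genes that fell, AT5G20790 held 2 GATAA cores, and the windows of AT2G15020 and AT2G44940 held none of the motifs.

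Over all 19163 tested genes with a window, 28.0% held a W-box. The share was 36.5% among genes that rose, 46.3% among those that rose at least 2-fold, and 24.5% among genes that fell. For TGACG the shares were 19.3% of all windows, 22.4% of those of genes that rose and 17.1% of those of genes that fell. The GATAA core, a motif of light-responsive promoters, was held by 55.4% of all windows, 62.0% of those that rose and 52.9% of those that fell. The G-box was held by 7.32%, 7.38% and 5.89% in the same order, the evening element by 2.54%, 3.57% and 3.32%, and the GCC box by 2.00%, 1.62% and 1.81%. These are counts of letters, with no test of binding.

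The sugar starvation response had more called genes than any other of the 33 lists. Of 24 tested genes listed as targets or members of the SnRK1 network, 16 rose, by 0.24 to 1.97 on the log2 scale, and 2 fell, against 6.4% and 3.43% over all genes. The median of the list was 0.40. TPS8 and TPS11 belong to the class II trehalose phosphate synthase-like genes, which respond to sugar status. TPS8 was at 131, 122 and 140 CPM in W5 and 341, 339 and 338 CPM in W7, a spread of a few CPM around a level far above W5 (1.37 ± 0.07, edgeR adjusted p = 1.55e-09). TPS11 rose from 45.8, 41.7 and 48.0 CPM to 136, 143 and 148 CPM (1.65 ± 0.09, edgeR adjusted p = 4.88e-09). The transcription factor gene BZIP1, which directs amino acid breakdown under low energy, rose from 21.1, 18.2 and 20.7 CPM to 45.6, 48.0 and 42.5 CPM (1.18 ± 0.08, edgeR adjusted p = 3.97e-08). None of these 3 genes overlapped between groups.

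SEN1 (DIN1), a dark- and senescence-induced gene, rose from 24.4, 17.5 and 26.6 CPM to 94.6, 104 and 68.2 CPM (1.97 ± 0.21, edgeR adjusted p = 0.000412), also without overlap. The breakdown genes of the list shared this direction: DIN10 of raffinose metabolism rose by 1.38, the asparagine synthetase gene ASN1 by 1.41, and BCAT2 of branched-chain amino acid breakdown by 1.45, though BCAT2 has only 90.8% of exon bases of its own. The genes of leucine breakdown IVD, MCCA and MCCB rose by 0.37, 0.36 and 0.27. TPS9 and TPS10 rose by 1.37 and 0.67, and the SnRK1 subunit gene AKINBETA1 by 0.92. The catalytic subunits KIN10 and KIN11 did not pass the test, with log2 fold changes of 0.05 and -0.13. TPS5 and BZIP11 fell by 0.30 and 0.37, with adjusted p up to 0.163 and 0.172. The call of TPS5 was lost without W5 replicates 1, 2 or 3 or W7 replicates 1 or 3, and that of BZIP11 without W5 replicates 2 or 3 or W7 replicates 1 or 2. DIN2, at a log2 fold change of 3.94 ± 1.83, did not pass (edgeR adjusted p = 0.233).

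The BTB-TAZ genes, the KMD genes and the DUF506 genes had the highest share of calls. Of 10 tested members, 8 rose and none fell, with a median log2 fold change of 1.24. KMD1 encodes an F-box kelch protein that targets phenylpropanoid enzymes and cytokinin regulators for degradation, and was at 136, 113 and 134 CPM in W5 and 309, 306 and 264 CPM in W7 (1.2 ± 0.09, edgeR adjusted p = 5.54e-08). AT2G20670, of the DUF506 family, was at 112, 104 and 126 CPM in W5 and 359, 339 and 345 CPM in W7 (1.61 ± 0.09, edgeR adjusted p = 2.43e-09). No W7 library of either gene came near W5. Mock plants had less still, 39.7, 36.3 and 38.2 CPM of AT2G20670 and 56.5, 55.3 and 55.6 CPM of KMD1. BT1 rose by 1.56, BT4 by 0.87 and KMD2 by 1.28, and BT5 rose by 1.57 with 89.5% of exon bases of its own. BT3 did not pass, at -0.25 ± 0.18. The count in this list was 7 without W5 replicate 1, where BT1 was lost (adjusted p = 0.0576), and 8 without any other library. With the mock libraries in the fit the count was also 7, and BT5 was lost (edgeR adjusted p = 0.142).

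The senescence and chlorophyll breakdown genes also moved together, with 8 of 15 higher, none lower and a median of 0.79. The 8 were mostly NAC transcription factor genes. RD26, a NAC factor of abscisic acid responses, rose from 31.1, 23.4 and 29.1 CPM to 61.6, 63.4 and 75.9 CPM (1.27 ± 0.10, edgeR adjusted p = 6.96e-07). NAC055 rose by 1.49 ± 0.14, ORS1 by 1.04 ± 0.12, ORE1 by 0.92 ± 0.13 and NAP, an activator of chlorophyll loss, by 0.79 ± 0.07. ATAF1 rose by 0.60, though only 77.5% of its exon bases are its own. WRKY6 rose by 1.28 and NYE2 by 0.71. The enzymes of chlorophyll breakdown PAO, PPH and NYC1 did not pass, with log2 fold changes of 0.19, 0.22 and 0.14. SAG12, a late senescence marker, did not pass the filter on low counts. With the mock libraries in the fit, 4 of the 15 genes were called and NAC055 was not (adjusted p = 0.239). Its mock levels were 3.63, 3.51 and 36.4 CPM, and the part of mock replicate 3 in this was not tested.

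Sugar and nitrogen transport genes rose in part. Of 11 sugar transporter genes, the hexose importers STP1, STP4, STP13 and STP14 rose and none fell. STP4 was at 67.7, 58.4 and 61.2 CPM in W5 and 104, 102 and 103 CPM in W7 (0.72 ± 0.07, edgeR adjusted p = 3.82e-06). STP1 rose from 96.2, 86.9 and 96.0 CPM to 267, 308 and 214 CPM (1.5 ± 0.23), with 87.4% of exon bases of its own. All W7 values of both genes exceeded those of W5. The sucrose exporter genes SWEET11 and SWEET12 did not pass, at -0.11 and 0.19. Of 22 nitrate and ammonium genes, 6 rose and none fell. They included NRT2.1, a high-affinity nitrate transporter gene, which had 0.353, 0.508 and 0.638 CPM in W5 and 2.42, 2.15 and 2.66 CPM in W7 (2.26 ± 0.37, edgeR adjusted p = 0.000672). NIA2, the main nitrate reductase gene, rose by 0.42, and LBD37, a nitrogen-responsive repressor gene, by 0.54.

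**Figure D2:**
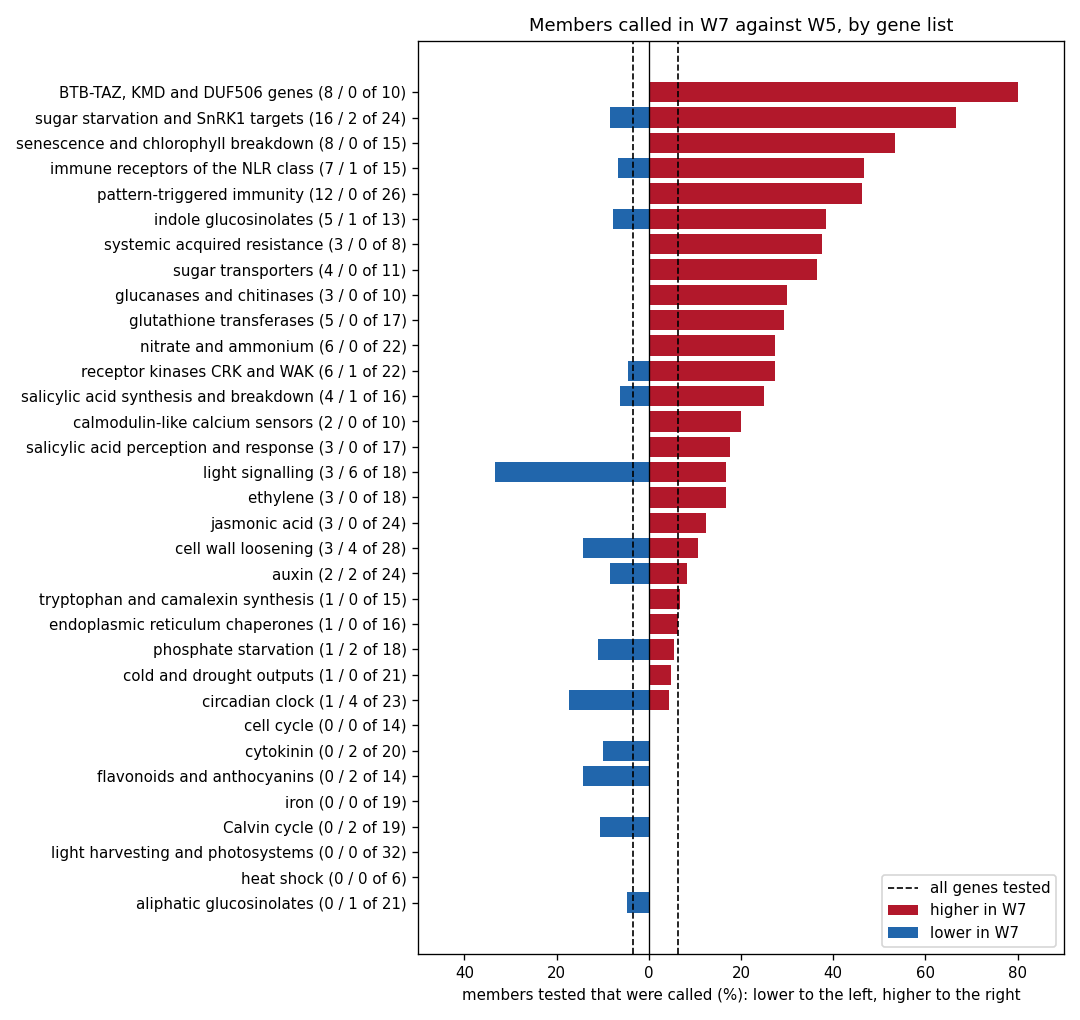
Share of tested members called lower (left) and higher (right) in W7 against W5 in each of 33 gene lists, in percent, with counts in brackets; dashed lines mark the shares over all genes tested, 6.4% higher and 3.43% lower. The BTB-TAZ, KMD and DUF506 list has 8 of 10 members higher, and light signalling has the largest share lower, 6 of 18.

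Genes of pattern-triggered immunity rose with no decrease. Of 26 members, 12 rose, with a median of 0.30 over the list. FRK1, a receptor kinase gene induced by flagellin, was at 4.18, 5.59 and 6.54 CPM in W5 and 21.2, 22.5 and 35.5 CPM in W7, with no overlap (2.28 ± 0.31, edgeR adjusted p = 0.00226). CYP81F2, a cytochrome P450 gene that modifies indole glucosinolates, rose from 19.9, 15.2 and 21.5 CPM to 39.8, 40.4 and 45.5 CPM (1.15 ± 0.12, edgeR adjusted p = 4.6e-05). MLO12, of the MLO family of powdery mildew susceptibility genes, rose by 1.85 ± 0.22, WRKY22 by 1.14 ± 0.16 and WRKY53 by 1.31. The pattern receptors FLS2 and EFR, which bind bacterial flagellin and elongation factor, did not pass, at -0.08 and 0.07, and neither did their partner BAK1, at 0.13. The receptor CERK1, for chitin and peptidoglycan, rose by 0.31, and SOBIR1, an adaptor of receptor-like proteins, by 1.01.

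WRKY33, a regulator of camalexin synthesis, was at 38.5, 28.5 and 40.1 CPM in W5 and 56.3, 60.2 and 90.6 CPM in W7. The groups did not overlap, and the log2 fold change was 0.95 ± 0.22 (edgeR adjusted p = 0.0308). This call was lost without any 1 of the W5 libraries or W7 replicate 2 (adjusted p up to 0.0933), and with the mock libraries in the fit (0.28). The number of pattern-triggered immunity genes called was 5 without W5 replicate 3, 6 without W7 replicate 2 and 7 without W5 replicate 2. It was also 5 with the mock libraries in the fit, where WRKY22 and MLO12 were lost (adjusted p = 0.0973 and 0.196). Mock replicate 3 had 9.61 CPM of WRKY22 and 37.8 CPM of MLO12, and its part in this was not tested.

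Intracellular immune receptors of the NLR class rose by little but often: 7 of 15 rose, by 0.22 to 0.54, and 1 fell. ADR1-L2, a helper receptor, was at 32.6, 33.7 and 31.5 CPM in W5 and 39.9, 45.1 and 47.7 CPM in W7, without overlap (0.44 ± 0.08, edgeR adjusted p = 0.0011). ZAR1 rose by 0.54 and ADR1-L1 by 0.37, and RPP13 fell by 0.25, but these 3 genes have 89.3%, 76.6% and 67% of exon bases of their own. The call of RPP13 was lost without W7 replicate 2 or W7 replicate 3 (adjusted p up to 0.0593). The number that rose was 4 without W5 replicate 2, W7 replicate 2 or W7 replicate 3.

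Of 22 cysteine-rich receptor kinase (CRK) and wall-associated kinase (WAK) genes, 6 rose and 1 fell, with a median of 0.81. CRK10 was at 66.9, 57.0 and 63.1 CPM in W5 and 84.5, 96.3 and 106 CPM in W7 (0.62 ± 0.08, edgeR adjusted p = 5.2e-05). CRK20 had 0.504, 1.06 and 1.01 CPM in W5 and 3.56, 3.11 and 4.50 CPM in W7 (2.1 ± 0.26, edgeR adjusted p = 3.18e-05). CRK13 rose by 1.46 ± 0.19. None of these 3 genes overlapped between groups. The decrease of CRK21, by 0.28, was lost without W5 replicate 1, W7 replicate 2 or W7 replicate 3 (adjusted p up to 0.0824). Without W7 replicate 1, 10 members rose.

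Salicylic acid genes moved unevenly. Of 16 genes of its synthesis and breakdown, 4 rose and 1 fell. UGT74F2, a glucosyltransferase gene whose product conjugates salicylic acid, rose from 77.6, 75.4 and 86.3 CPM to 133, 117 and 135 CPM (0.68 ± 0.08, edgeR adjusted p = 8.95e-06), although a closely similar neighbour, UGT74F1, may share its reads. ICS1, the main enzyme of synthesis, was at 28.4, 23.9 and 25.0 CPM in W5 and 24.1, 32.8 and 47.3 CPM in W7. These overlapped, and the log2 fold change of 0.43 ± 0.24 did not pass (edgeR adjusted p = 0.323). The transcription factor gene CBP60G, which activates ICS1, rose by 1.01 ± 0.22, SAG101, a partner of EDS1, by 0.38, and PAL2 of the phenylpropanoid pathway fell by 0.23. UGT76B1, whose product conjugates salicylic acid and N-hydroxypipecolic acid, was also called higher, but it was near 0 in W5, at 0.0504, 0.0462 and 0 CPM, and at 1.09, 2.42 and 7.75 CPM in W7, so no fold is given. The calls of these 4 genes were lost in fits without 1 library. Those of CBP60G and UGT76B1 were lost without any 1 of the W5 libraries or W7 replicate 2 (adjusted p up to 0.0786 and 0.103). With the mock libraries in the fit, CBP60G was also lost (adjusted p = 0.145). SAG101 was lost without W5 replicate 2 or W7 replicate 2 (up to 0.073), and PAL2 without W5 replicates 1 or 3 or W7 replicates 2 or 3 (up to 0.127). The number that rose was 9 without W7 replicate 1, 2 without W5 replicate 1 or 3, and 1 without W5 replicate 2 or W7 replicate 2.

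Of 17 genes of salicylic acid perception and response, 3 rose, with a list median of 0.73. The receptors NPR3 and NPR4 rose by 0.73 ± 0.11 and 0.59 ± 0.10. NPR3 was at 22.9, 20.8 and 21.0 CPM in W5 and 30.4, 34.7 and 41.9 CPM in W7. WRKY70 rose from 15.8, 12.9 and 11.3 CPM to 27.6, 51.3 and 99.2 CPM (2.15 ± 0.49, edgeR adjusted p = 0.0288). In each of these genes W7 stood clear of W5. The WRKY70 call was lost, however, without any 1 of the W5 libraries, W7 replicate 2 or W7 replicate 3 (adjusted p up to 0.1). It was also lost when the W5 and W7 libraries were fitted alone (0.104). PR1, the standard marker of salicylic acid responses, had 0.907, 0.139 and 0.638 CPM in W5 and 0.495, 4.07 and 8.35 CPM in W7. W7 replicate 1 lay within W5 and the other 2 above it, and the test did not pass (2.93 ± 1.54, edgeR adjusted p = 0.295). Without W7 replicate 1, 7 genes of the list rose, and without W5 replicate 1, 2 or 3 or W7 replicate 3, 2 did.

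Systemic acquired resistance genes had the highest median of the defence lists, 1.59, but 3 of 8 were called higher. All 8 had log2 fold changes above 0 and unadjusted edgeR p under 0.05. AZI1, a lipid-transfer-like gene of defence priming, rose from 92.9, 120 and 103 CPM to 225, 213 and 211 CPM (1.04 ± 0.11, edgeR adjusted p = 5.39e-05). GLI1, the glycerol kinase gene, rose by 0.35 ± 0.07 and EARLI1 by 1.38 ± 0.33. AZI1 and EARLI1 are closely similar neighbours that may share reads, and the EARLI1 call was lost without any library other than W5 replicate 2 (adjusted p up to 0.114). FMO1, which makes the mobile signal N-hydroxypipecolic acid, had 0.202, 0.139 and 0.213 CPM in W5 and 0.148, 3.93 and 8.07 CPM in W7. One W7 library was thus at the W5 level, and the log2 fold change of 4.41 ± 1.65 did not pass (edgeR adjusted p = 0.144). It did pass in DESeq2 (0.0313) and in edgeR without the robust option (0.0385). The number that rose was 2 without W5 replicate 1, W5 replicate 3, W7 replicate 2 or W7 replicate 3.

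The W7 libraries stood far apart on some of the defence lists. Relative to the W5 mean, the median log2 level of the systemic acquired resistance list was 0.28, 1.29 and 2.00 in W7 replicates 1, 2 and 3. For salicylic acid perception and response it was 0.13, 0.67 and 0.95, for CRK and WAK genes 0.21, 0.73 and 1.00, and for glucanases and chitinases 0.18, 0.73 and 1.24. In all 4 lists replicate 1 was the lowest and replicate 3 the highest. The sugar starvation list was at 0.46, 0.46 and 0.40 in the same libraries, the BTB-TAZ, KMD and DUF506 list at 1.3, 1.31 and 1.08, and the senescence list at 0.74, 0.82 and 0.77. Other defence lists were also narrow in W7, with a range of 0.23 for pattern-triggered immunity, 0.099 for NLR genes and 0.063 for indole glucosinolates. The difference in spread between lists was not tested. Mock replicate 3 lay at 0.74 for systemic acquired resistance and 0.49 for salicylic acid perception and response, whereas mock replicates 1 and 2 lay within 0.06 of W5 on both lists.

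**Figure D3:**
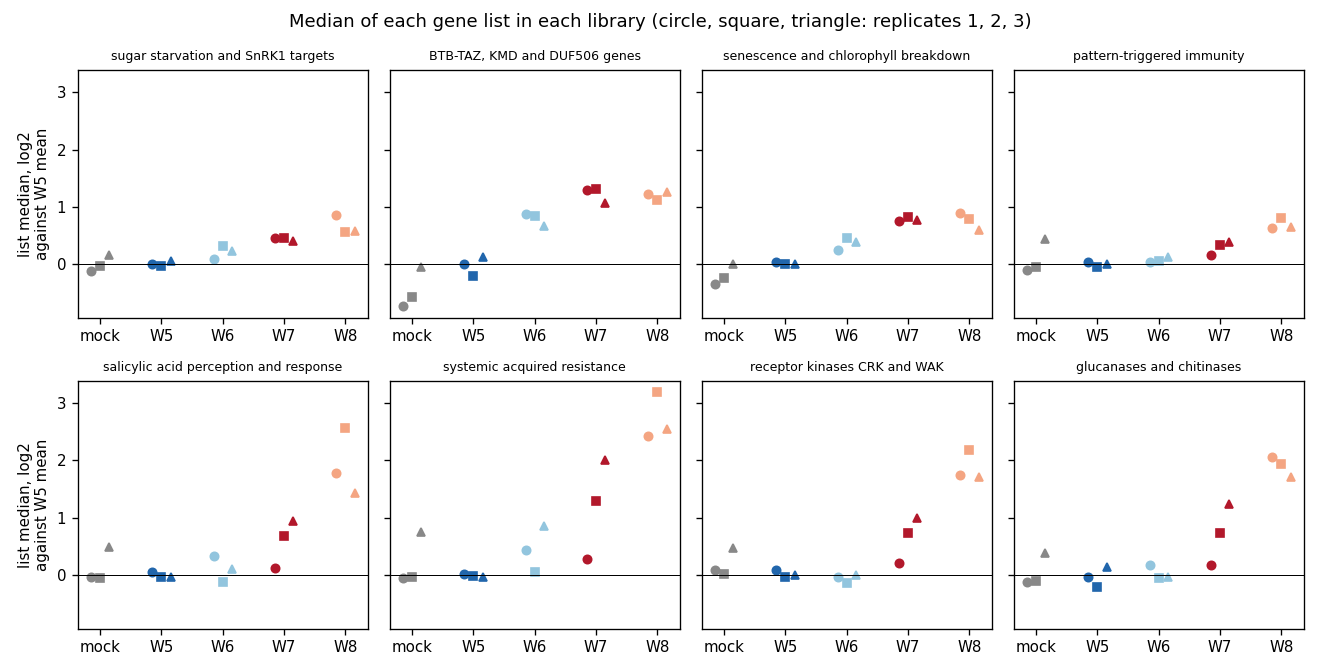
Median log2 level of 8 gene lists in each library relative to the mean of W5 (log2 of CPM plus 0.5), for mock, W5, W6, W7 and W8; symbols are replicates 1, 2 and 3. In W7 the systemic acquired resistance list spreads from 0.28 to 2.00, while the senescence list lies between 0.74 and 0.82.

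Antimicrobial proteins and defence metabolites changed in part. Of 10 glucanase and chitinase genes, 3 rose and none fell. AT2G43620, a chitinase gene, went from 3.38, 5.27 and 11.0 CPM to 20.3, 20.8 and 27.7 CPM (1.82 ± 0.40, edgeR adjusted p = 0.0239), lost without W5 replicates 1 or 2 or W7 replicates 2 or 3 (up to 0.091). AT1G02360, another chitinase gene, rose by 0.56 ± 0.11, and CHIA, which was under 0.4 CPM in W5, by 2.46 ± 0.40. Of 17 glutathione transferase genes, 5 rose and none fell, 1 without W5 replicate 1, 2 without W7 replicate 2 or 3, and 3 without W5 replicate 2. GSTF6 rose from 81.5, 62.2 and 97.6 CPM to 159, 187 and 249 CPM (1.3 ± 0.24, edgeR adjusted p = 0.0108), but GSTF2, GSTF3, GSTF6 and GSTF7 are similar enough that their reads may be shared. Of 10 calmodulin-like genes, 2 rose, CML12 by 0.90 (79.8% of exon bases its own) and CML38 by 0.92. Both calls were lost without W5 replicate 1, where none of the 10 was called. CML12 was also lost without W5 replicate 2 (adjusted p up to 0.0587), and with the mock libraries in the fit (0.201). CML38 was also lost without W5 replicate 3, W7 replicate 2 or W7 replicate 3 (adjusted p up to 0.163).

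Among 13 indole glucosinolate genes, 5 rose and 1 fell, and the 2 regulators moved in opposite directions. MYB51 rose from 20, 16.7 and 22.4 CPM to 25.6, 33.2 and 40.4 CPM (0.75 ± 0.16, edgeR adjusted p = 0.0135), and its paralog MYB34 fell from 14.0, 13.4 and 15.5 CPM to 8.76, 7.32 and 8.13 CPM (-0.83 ± 0.12, edgeR adjusted p = 0.000265). Neither overlapped between groups. The MYB51 call was lost without W5 replicate 1 or W7 replicate 2 (adjusted p up to 0.0542), and when the W5 and W7 libraries were fitted alone (0.0666). IGMT2 rose by 1.73 ± 0.21, with reads that may be shared with its copy IGMT1. Its call was lost with the mock libraries in the fit (edgeR adjusted p = 0.0533). The list count was 2 without W7 replicate 2 and 3 without W5 replicate 1, W7 replicate 1 or W7 replicate 3. Of 15 tryptophan and camalexin genes, 1 rose, ASA1 of tryptophan synthesis, by 0.35 ± 0.10 (91.2% of exon bases its own), lost without W5 replicates 1 or 2 or W7 replicates 2 or 3 (adjusted p up to 0.126). The number that rose was 2 without W5 replicate 3 or W7 replicate 1. PAD3, the last enzyme of camalexin synthesis, was at 1.06, 1.43 and 3.09 CPM in W5 and 2.87, 8.14 and 24.7 CPM in W7. W7 replicate 1 lay within W5, and the test did not pass (2.68 ± 0.86, edgeR adjusted p = 0.0982), although it did in DESeq2 (0.00772) and without W7 replicate 1 (0.0331). Of 21 aliphatic glucosinolate genes 1 fell, their regulator MYB28, by 0.41 ± 0.09, and 20 of the 21 had negative log2 fold changes, with a median of -0.20. Without W7 replicate 3, 3 of them fell.

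Jasmonate and ethylene genes had few calls, all of them higher, at 12.5% and 16.7% of members against 6.4% over all genes. The list medians were 0.34 and 0.18. Of 24 jasmonate genes, 3 rose, the repressor genes JAZ2, JAZ3 and JAZ7 by 0.39, 0.66 and 1.60. The JAZ7 call was lost without any 1 library other than W7 replicate 2 (adjusted p up to 0.178), and with the mock libraries in the fit (0.606). JAZ3 was at 12.2, 13.4 and 17.6 CPM in W5 and 23.5, 20.8 and 23.7 CPM in W7. VSP2 and PDF1.2, outputs of the 2 jasmonate branches, did not pass, at 0.82 ± 0.79 and 0.76 ± 0.69 (edgeR adjusted p = 0.588 and 0.565). Of 18 ethylene genes, ERF104, ERF6 and the synthesis gene ACS6 rose. ERF104, a factor released upon flagellin perception, rose from 15.7, 14.8 and 17.9 CPM to 32.9, 36.2 and 35.7 CPM without overlap (1.12 ± 0.09, edgeR adjusted p = 1.78e-07). With the mock libraries in the fit ERF6 and ACS6 were lost (adjusted p = 0.147 and 0.477). ACS6 was at 6.36, 6.92 and 48.8 CPM in mock.

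Light signalling was the list with the largest share of decreases, 6 of 18, with 3 increases and a median of -0.21. All 6 were B-box genes, which encode zinc finger partners of light-regulated transcription factors. BBX29 was at 9.17, 8.18 and 9.47 CPM in W5 and 3.91, 3.2 and 4.23 CPM in W7 (-1.24 ± 0.15, edgeR adjusted p = 2.78e-05). BBX18 fell by 0.53 ± 0.11 and BBX30 by 1.88 ± 0.45, the latter from 1.66, 1.39 and 1.60 CPM and lost without W7 replicate 2 (adjusted p = 0.0731). BBX17 rose from 15.3, 18.7 and 17.8 CPM to 31.5, 28.3 and 29.1 CPM (0.78 ± 0.09, edgeR adjusted p = 2.19e-05), BBX14 by 0.79 with 87.4% of exon bases of its own, and the growth regulator gene PIF5 by 0.28. No W7 library of BBX29, BBX18 or BBX17 overlapped W5. The count of decreases was 3 without W5 replicate 1, W7 replicate 2 or W7 replicate 3.

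Of 23 circadian clock genes, 4 fell and 1 rose, with a median of 0.01. PRR9, a morning-phased repressor, was at 44.2, 41.4 and 44.1 CPM in W5 and 29.8, 28.7 and 27.0 CPM in W7 (-0.60 ± 0.07, edgeR adjusted p = 1.44e-05). CDF1, a repressor of flowering, fell from 25.0, 24.2 and 23.9 CPM to 17.1, 15.8 and 14.7 CPM (-0.62 ± 0.10). The groups were well separated in both. CCA1, a core morning gene, fell from 60.8, 58.9 and 68.2 CPM to 54.3, 43.0 and 45.7 CPM (-0.39 ± 0.09, edgeR adjusted p = 0.0088), lost without W5 replicate 3 or W7 replicate 2 (up to 0.0616), and 2 genes of the list fell without W7 replicate 2. LUX of the evening complex rose by 0.48, a call lost without W5 replicate 1 (adjusted p = 0.0517), and 82.2% of its exon bases are its own. GI, ZTL and PRR7 did not pass, at -0.02, 0.09 and 0.01, and the time of day of sampling was not tested.

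Photosynthesis genes were hardly moved. None of 32 light-harvesting and photosystem genes passed in edgeR, DESeq2 or limma voom, 3 of them were called lower in the fit with a replicate block, and the median was -0.10. Of 19 Calvin cycle genes, 2 fell: FBA2, an aldolase gene, by 0.29 ± 0.08, and RBCS1B, a Rubisco small subunit gene with near-identical copies, by 0.45 ± 0.12. RBCS1B was at 654, 598 and 697 CPM in W5 and 557, 388 and 481 CPM in W7. Both calls were lost without W5 replicate 1, W5 replicate 3, W7 replicate 2 or W7 replicate 3 (adjusted p up to 0.104 for RBCS1B and 0.186 for FBA2). They were also lost with the mock libraries in the fit (0.153 and 0.0997), and 7 of the 19 fell without W7 replicate 1. In the fit with a replicate block 13 fell. All 19 had log2 fold changes below 0, with a median of -0.20.

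Phosphate starvation genes leaned downward, with 3 of 18 above 0 and a median of -0.33, but 2 fell and 1 rose. SPX1, a phosphate sensor gene, was at 58.8, 54.2 and 73.9 CPM in W5 and 33.1, 18.2 and 30.4 CPM in W7, without overlap (-1.2 ± 0.24, edgeR adjusted p = 0.0159), lost without W5 replicate 3 (0.0515). SQD1 of sulfolipid synthesis fell by 0.34. Its call was lost without W5 replicates 1 or 3 or W7 replicates 2 or 3 (up to 0.161), and with the mock libraries in the fit (0.21). SPX4 rose by 0.60 ± 0.09. Outside the list, the glycerol-3-phosphate transporter gene G3Pp1, known to rise under phosphate shortage, fell by 1.01 ± 0.16. The number that fell was 0 without W5 replicate 3 and 1 without W7 replicate 2 or 3.

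In cell wall loosening, 3 of 28 genes rose and 4 fell. XTH30, a xyloglucan-modifying enzyme gene, rose from 4.59, 5.22 and 5.27 CPM to 11.3, 10.5 and 9.21 CPM (1.04 ± 0.15, edgeR adjusted p = 0.000144), and XTH24 by 1.08 ± 0.16. XTH31 fell from 125, 99.3 and 103 CPM to 64.7, 52.5 and 65.5 CPM (-0.84 ± 0.14, edgeR adjusted p = 0.00332). W7 and W5 did not overlap for XTH30 or XTH31. The expansin genes EXPA1 and EXPA15 fell by 0.32 and 0.64. The EXPA1 call was lost without W5 replicates 1 or 3 or W7 replicates 2 or 3, and the EXPA15 call without W5 replicates 1 or 3 or W7 replicates 1 or 3 (up to 0.143 and 0.0704). The number that fell was 1 without W5 replicate 1 or 3 and 2 without W7 replicate 2 or 3.

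Growth hormone genes gave few and unstable calls, to be set beside 6.4% higher and 3.43% lower over all genes. Of 24 auxin genes, 2 rose (8.33%), IAA16 and SAUR9, by 0.30 and 0.72. Another 2 fell (8.33%), among them SAUR15, by 0.54. Of 20 cytokinin genes, 2 fell (10%), ARR8 by 0.36 (87.4% of exon bases its own) and CRF1 by 1.02. ARR6, a response regulator gene, did not pass, at -0.20 ± 0.12 (76.1%). Of 14 flavonoid genes, TT5 and UGT78D2 fell by 0.32 and 0.35, and of 21 cold and drought genes RD22 rose by 0.26. Each of these calls was lost without W5 replicate 1 and without W7 replicate 2, all but that of RD22 also without others, and adjusted p over the alternatives reached 0.0711 for RD22 and 0.12 to 0.17 for the other genes. Of 16 endoplasmic reticulum chaperone genes, BIP3 rose, from 1.46, 1.85 and 1.12 CPM to 5.20, 6.58 and 10.6 CPM. This call was lost with the mock libraries in the fit (edgeR adjusted p = 0.052). Without W7 replicate 1, 7 of the 16 rose, and 4 cold and drought genes also rose. No member of the heat shock, iron or cell cycle lists (6, 19 and 14 genes) was called in W7 against W5, nor in DESeq2, with medians of -0.14, 0.02 and -0.12, but 1 iron gene was called lower when the W5 and W7 libraries were fitted alone.

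W6 plants, at the density between W5 and W7, shared the estimate of spread but did not enter the contrast. For 1685 of the 1896 called genes (88.9%) the mean of W6 lay between those of W5 and W7, against 43.7% of all genes tested. The share was 96.8% of genes called with at least a 2-fold change. Among called genes the median share of the W5 to W7 change already present at W6, on the log2 scale, was 33.8%. It was 65.7% over the 8 called BTB-TAZ, KMD and DUF506 genes and 60.3% over the 8 called senescence genes, but 2.01% over the 7 called CRK and WAK genes and 0.803% over the 8 called NLR genes. In other lists it was, for example, 43.3% for salicylic acid synthesis, 40.3% for sugar starvation, 37.2% for systemic acquired resistance and 31.6% for pattern-triggered immunity. The highest list median was 66.7%, for 6 nitrate and ammonium genes, and the lowest 0.408%, for 3 jasmonate genes. Members of a list differed widely: -13.9% to 55.1% for NLR genes, -18.0% to 43.7% for CRK and WAK genes. The range was 17.6% to 71.2% for senescence, 52.6% to 91.7% for BTB-TAZ, KMD and DUF506 genes and -13.2% to 105% for sugar starvation. These values are descriptions, since the genes were selected on the W5 and W7 libraries.

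W8 against W6 is the other 100-fold difference in density of the series and shares no library with W7 against W5. It had 6228 called genes (32.3%), 3510 higher (18.2%) and 2718 lower (14.1%). Under upper-quartile scaling that split turned to 2690 higher and 4113 lower. In both comparisons 1457 genes were called in the same direction, which was 76.8% of the W7 calls and 23.4% of the W8 calls, and 7 genes were called in opposite directions. The log2 fold changes of both comparisons had a Pearson r of 0.69 over the 19285 genes, which are not independent replicates and share a fit. When each comparison was fitted on its own libraries, 1547 genes were shared (68% and 30.7%) and 9 were opposite.

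The size of the change differed between the comparisons for 553 genes (2.87%) by the test of the difference itself, and for 223 of the 1896 genes called in W7 against W5. Of these 223, 146 changed more in W8 against W6 and 77 changed less or in the opposite direction. Values of the difference below are the W8 against W6 log2 fold change minus that of W7 against W5, so that a negative value of a rising gene means the larger step was from W5 to W7. The largest differences toward W8 were those of the receptor kinase genes CRK23 (3.38 ± 0.70) and AT4G18250 (2.3 ± 0.55), the purple acid phosphatase gene AT1G13750 (2.06 ± 0.38) and AT4G25070 (2.05 ± 0.43). CRK23 had 0.756, 0.231 and 0.479 CPM in W5 and 0.396, 1.05 and 1.25 CPM in W7, which overlapped. Of these 4 genes, AT4G25070 alone was called in W7 against W5 in the main fit, at 1.01 ± 0.31 (edgeR adjusted p = 0.0478). This call was lost without any 1 of the W5 libraries, W7 replicate 2 or W7 replicate 3, and in some other settings (adjusted p up to 0.225). AT4G18250 did pass in DESeq2 (adjusted p = 0.00493). In edgeR it passed without the robust option (0.0448), with W5 and W7 fitted alone (0.0319) and without W7 replicate 1 (0.0258). AT1G13750 passed in edgeR with W5 and W7 fitted alone (0.0246).

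The largest differences toward W7 were those of BT5 (-1.88 ± 0.29), OXS3 (-1.61 ± 0.16), BT2 (-1.56 ± 0.20) and the noncoding RNA gene AT5G03615 (-1.53 ± 0.34). OXS3, a stress tolerance gene, was at 9.83, 8.64 and 12.3 CPM in W5 and 18.7, 18.5 and 18.2 CPM in W7 (0.85 ± 0.11, edgeR adjusted p = 7.37e-05), and fell by 0.76 from W6 to W8. AT5G03615 was at 1.86, 1.2 and 1.76 CPM in W5 and 7.52, 7.41 and 5.31 CPM in W7 (2.08 ± 0.25). Of the sugar and senescence genes, AT2G20670 (-1.47 ± 0.12), RD26 (-1.29 ± 0.14), NAC055 (-1.12 ± 0.19), KMD1 (-0.92 ± 0.12), BZIP1 (-0.74 ± 0.12) and TPS8 (-0.53 ± 0.10) also had a significantly smaller step from W6 to W8. In W8 against W6, AT2G20670 and RD26 did not pass, at 0.14 and -0.03. In the BTB-TAZ, KMD and DUF506 list 8 of 10 genes rose in W7 against W5 and 4 in W8 against W6.

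Defence lists had more called genes at the higher densities. In W8 against W6, 21 of 26 pattern-triggered immunity genes rose where 12 had in W7 against W5, 15 of 17 salicylic acid response genes where 3 had, 19 of 22 CRK and WAK genes where 6 had, and 12 of 15 tryptophan and camalexin genes where 1 had. All 32 light-harvesting and photosystem genes fell where none had, and 13 of 16 endoplasmic reticulum chaperone genes rose where 1 had. These counts stand beside background shares of 18.2% and 14.1% in W8 against W6. The differences between list counts were not tested, and the test of the difference was made gene by gene.

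**Figure D4:**
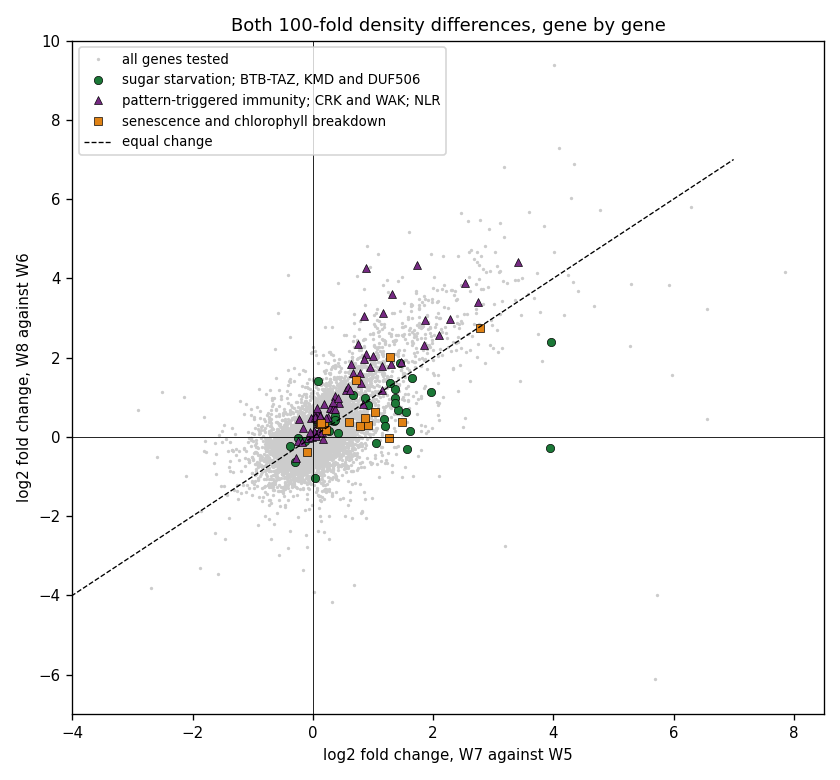
Log2 fold change of W7 against W5 (x axis) and of W8 against W6 (y axis) for all 19285 genes tested, with members of 6 lists coloured; the dashed line marks equal change. BT2 lies at 3.97 and 2.41, and CRK20 at 2.1 and 2.56.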

How the data were processed

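RNA was extracted, selected by poly-A, made into libraries with the NEBNext Ultra kit and sequenced as paired ends, per the labels' protocols. The authors deposited raw counts of reads per gene in 1 table. The submitters' processing notes name cutadapt 1.9.1, featureCounts 1.22.2 and the build TAIR10; the sources used here do not give the aligner or the strand setting. 32548 of 32833 gene identifiers matched RefSeq (TAIR10.1), used for symbols, upstream windows and the share of a gene's exon bases covered by no other gene (under 95% is given as uncertain).

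Counts were tested in R 4.3.3 with edgeR 4.0.16: filterByExpr (minimum count 10, minimum total 15), TMM scaling, and glmQLFit (robust) with glmQLFTest on the 12 inoculated libraries, 1 mean per group, with Benjamini-Hochberg adjustment. Contrasts were W7 against W5, W8 against W6 and their difference. The standard error was the absolute log2 fold change over the root of the F statistic. CPM of single genes use the TMM factors of the 12 inoculated libraries, and those of mock use factors over all 15 libraries. Marker sums use the counts of all genes without TMM factors. No 2 replicates were duplicates: within-group chi-square per degree of freedom was 3.97 to 8.79. The script was tested on simulated data. Alternatives used DESeq2 1.42.0, limma 3.58.1, other scalings, filters and sample sets, and removal of each library.

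Named genes included the 12 largest changes per direction with no overlap and a mean of at least 5 CPM in the higher group (at least 95% of exon bases their own). They also included up to 3 called members per list and direction with the smallest p, 14 chosen genes, and the 4 largest differences per direction. Other genes were added from the same lists after their values were seen. The comparison, the lists and the rules were chosen with earlier results of these data known.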

Additional observations from a re-analysis of the deposited data

Results flagged for a closer look

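The change from W5 to W7 and the change from W6 to W8 differed for 553 genes by the test of the difference (edgeR, adjusted p under 0.05), and 27 of them are named genes. The difference is the W8 against W6 log2 fold change minus that of W7 against W5. It was negative for genes that rose more from W5 to W7: BT5 -1.88, OXS3 -1.61, BT2 -1.56, AT5G03615 -1.53, AT2G20670 -1.47, RD26 -1.29, NAC055 -1.12, KMD1 -0.92, BZIP1 -0.74, TPS8 -0.53, NAP -0.51 and BBX14 -0.46. It was also negative for genes that fell more from W6 to W8, AT2G15020 at -1.13, BBX18 at -0.74, CCA1 at -0.71 and PRR9 at -0.38. It was positive for genes that rose more from W6 to W8: CRK23 3.38, AT4G18250 2.3, AT1G13750 2.06, AT4G25070 2.05, MYB51 1.05, ASA1 0.77, STP4 0.65, ZAR1 0.64, CRK10 0.56 and ADR1-L2 0.41. ARR6 had a difference of 1.07, with -0.20 in W7 against W5 and 0.87 in W8 against W6.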

How the results depend on the processing

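The number of genes called in W7 against W5 was 996 to 1785 when each library was left out, 757 to 1231 higher and 239 to 554 lower. It was 1464 with all 15 libraries, 2279 with the W5 and W7 libraries alone, 2007 in DESeq2 and 1750 in limma voom. List members called numbered 141 (of 584 tested), and 92 to 159 with 1 library left out. Genes called by the test of the difference numbered 553, 886 in DESeq2 and 226 to 842 with 1 library left out (lowest without W7 replicate 1, highest without W7 replicate 3). W8 against W6 gave 4787 to 6240 with 1 library left out. Deviations from the group mean, over all genes, correlated at -0.159 to 0.12 over 18 pairs of same-numbered libraries. By this measure 3 of 12 libraries correlated best with their own number. A pairing that touches only some genes was not tested by these correlations. With a replicate block, 2015 genes were called in W7 against W5 (1213 higher and 802 lower), 6267 in W8 against W6 and 676 for the difference. For genes called with at least a 2-fold change, W6 lay between in 96.8%. Their W-box share was 46.3% (higher) and 18.2% (lower), the TGACG share 25.3% and 22.7%, the G-box share 4.91% and 9.09%, and among the 22 lower genes the GCC box share was 0% and the GATAA share 40.9%. Of 115 called named genes, 62 were called in every alternative and 53 were lost in at least 1, and none changed direction. Each alternative with 1 library left out has 2 pools in a group, which limits what it can call.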

Other observations

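Gene families by RefSeq product name, chosen after values were seen and given without a test, added to the lists. Of 52 WRKY transcription factor genes, 17 rose in W7 against W5 and none fell, and of 69 NAC genes 14 rose and none fell, beside 6.4% and 3.43% of all genes. Of 10 DUF506 genes, 7 rose and none fell, with a median log2 fold change of 0.77. AT4G32480, a family member outside the lists, had a mean of 8.69 CPM in W5 and 19.3 CPM in W7. In W8 against W6, 2 of the 10 rose. UDP-glycosyltransferase genes had 17 of 87 higher and 4 lower, and RING finger genes 37 of 265 higher and 5 lower.

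Of other families, SAUR-like and ribosomal protein genes fell more often than they rose, whereas C1 domain genes rose more often. Of 51 SAUR-like genes, known for promoting cell expansion, 6 fell (11.8%) and 2 rose (3.92%), beside 3.43% and 6.4% of all genes. AT4G38840 fell from a mean of 40.4 to 26.9 CPM. Of 310 ribosomal protein genes, 16 fell (5.16%) and 4 rose (1.29%), with a median of -0.12. In W8 against W6, where 14.1% of all genes fell, 109 of them fell. Of 44 C1 domain genes 7 rose (15.9%) and 2 fell (4.55%), with a median of 0.13. ULI3 was among the 2 that fell, at a mean of 23.7 CPM in W5 and 14.5 CPM in W7.

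The 7 genes called in opposite directions, named after their values were seen, were OXS3, AT5G21940, MYB3, AT2G32150, AT3G05936 and MEE59, which were higher in W7 than in W5 and lower in W8 than in W6, and AT3G52710, which was the reverse. AT5G21940, with 90.5% of exon bases of its own, had means of 58.6, 119.6, 120.1 and 87.5 CPM in W5, W6, W7 and W8. MYB3, a repressor of phenylpropanoid genes, had 33.5, 45.7, 46.9 and 37.4 CPM in the same order.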
